A study of Rattus norvegicus with 12 samples.

Results

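The comparison described here is forskolin added to CHIR99021 against CHIR99021 alone in rat XEN cells, cultured extraembryonic endoderm stem cells, here of the Fisher strain. It was chosen by array title: 3 arrays of cells that received both compounds were set against 3 arrays of cells that received CHIR99021 only, which is 6 of the 12 arrays of the series. CHIR99021 (CHIR below) is an inhibitor of the kinase GSK3, and forskolin is a plant diterpene that activates adenylate cyclase. In the CHIR group, cells were given 3 μM CHIR for 2 days. In the CHIR plus forskolin group, the same 2 days of 3 μM CHIR included 10 μM forskolin on the last day. The other two groups, used for comparison, were an untreated control and cells given 10 μM forskolin for 1 day without CHIR. All groups shared the medium, which was DMEM/F12 with 10% serum on the day before the last day and 0.1% serum on the last day, so every forskolin effect below was measured in low serum. Each group had 3 arrays, and the labels call them parallels without saying whether they came from separate cultures. The p-values therefore cover only the scatter among these arrays, and that scatter may be technical.

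Forskolin raises cyclic AMP (cAMP), which releases the catalytic subunits of protein kinase A (PKA); PKA phosphorylates CREB and related factors that bind the cAMP response element in promoters of rapidly induced genes. Those genes include brakes on the pathway itself, such as phosphodiesterases, which destroy cAMP, and the repressor forms of Crem. GSK3 inhibition stabilises β-catenin, the nuclear effector of canonical Wnt signalling. Extraembryonic endoderm forms visceral endoderm, a polarised absorptive epithelium, and parietal endoderm, migratory cells that lay down basement membrane; in the mouse embryo, parathyroid hormone-related peptide acting through a receptor coupled to adenylate cyclase is a known signal toward the parietal fate.

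RNA was hybridised to an Affymetrix rat array with several probe sets for most genes, and a gene's value is the median log2 signal of its probe sets. In all, 16633 genes were measured, and 10405 of them lay above 6.42, the 95th percentile of 1102 olfactory receptor genes, in at least 1 group. That level is used below as a mark of near-background signal; a group below it bounds a difference rather than fixing it, so no fold is given for such genes. Array medians lay between 7.76 and 7.86. Across genes, arrays of the CHIR group correlated at 0.995 to 0.996 with each other, arrays of the CHIR plus forskolin group at 0.995 to 0.997, and arrays of different groups of this pair at 0.986 to 0.990. No array stood apart from its group. The defining extraembryonic endoderm genes were high in both groups: Gata4, a zinc finger factor of this lineage, had 12.26 ± 0.023 (mean log2 signal ± SD, n = 3) with CHIR and 12.39 ± 0.064 with CHIR plus forskolin, and Sox17 had 11.73 ± 0.015 and 11.88 ± 0.084. Of 9 mesoderm and definitive endoderm markers, 2 were above the near-background level in each group, and of 14 fibroblast markers also 2. Neither of these lists had a called member in the limma fit, against 2 and 1 at an unadjusted p under 0.05. Of 11 markers of pluripotent cells, 5 were above that level with CHIR and 3 with CHIR plus forskolin. The counts were 3 and 5 for 12 trophoblast markers, and 4 and 5 for 13 endothelium and blood markers. In these 3 lists 27.3%, 16.7% and 15.4% of members were called, beside 13.8% over all genes. RNA was taken from whole cultures, so fewer cells of a type and less RNA per cell cannot be told apart in any result below.

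Forskolin changed 2301 of the 16633 genes in cells under GSK3 inhibition (13.8%; limma, Benjamini-Hochberg adjusted p under 0.05 over all genes). Of these, 1082 rose (6.51%) and 1219 fell (7.33%). A difference of at least 1 log2 unit, a doubling or halving of signal, was found in 254 genes (1.53%), with 115 higher (0.691%) and 139 lower (0.836%). The median difference over all genes was -0.00079 log2 units. Without the first CHIR array the count of called genes was 1653. Genes named below by size were picked among those with non-overlapping groups and a higher group mean at or above 7.48. For them, separation of the arrays was a condition of the choice and adds no evidence.

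Genes that cAMP is known to induce were among those that rose. Of 28 early targets of cAMP, PKA and CREB, 10 rose and 3 fell, against 6.51% higher and 7.33% lower over all genes, with a median difference of 0.08 log2 units. Crem, whose cAMP-inducible forms repress CREB targets, had log2 signals of 8.77, 8.40 and 8.64 on the CHIR arrays and 9.81, 10.05 and 9.85 on the CHIR plus forskolin arrays. All 3 arrays with forskolin were above all 3 without it. The rise was 1.30 ± 0.12 log2 units (difference ± SE; adjusted p = 4.03e-06, limma), or 2.47-fold. Of its 15 probe sets 9 were called higher, and their differences ran from -0.49 to 2.61, so its probe sets did not move equally.

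The promoter windows of Crem and of Sik1, a kinase that PKA induces and that holds back CREB coactivators, are shown because they carry the letters CREB proteins are known to bind. They are RefSeq windows of 300 bases on GRCr8 that end shortly after a transcript start, written 5′ to 3′ on the strand of the gene. Capitals mark the cAMP response element TGACGTCA, the shorter element TGACG within or outside it, or the reverse complement of the latter, CGTCA. Of 3 Crem windows, the 2 with the full element are chr17:58984547-58984846 and chr17:58985240-58985539 (plus strand), and the Sik1 window is chr20:9958597-9958896 (minus strand). The third Crem window, chr17:58933816-58934115, lies further upstream, held 2 copies of the shorter element but not the full one, and is not shown. Upstream and downstream below refer to the 2 Crem windows shown.
Crem, upstream start: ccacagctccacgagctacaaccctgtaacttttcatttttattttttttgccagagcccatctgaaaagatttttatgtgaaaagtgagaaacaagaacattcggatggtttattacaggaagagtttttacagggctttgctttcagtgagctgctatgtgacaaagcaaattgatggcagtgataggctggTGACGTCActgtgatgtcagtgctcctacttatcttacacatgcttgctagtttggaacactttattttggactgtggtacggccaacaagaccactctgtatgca
Crem, downstream start: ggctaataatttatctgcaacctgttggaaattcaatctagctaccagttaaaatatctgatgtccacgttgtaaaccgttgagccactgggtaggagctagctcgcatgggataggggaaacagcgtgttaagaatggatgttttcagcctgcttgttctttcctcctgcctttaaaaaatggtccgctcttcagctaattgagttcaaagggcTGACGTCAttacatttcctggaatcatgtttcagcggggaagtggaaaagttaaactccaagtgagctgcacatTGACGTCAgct
Sik1: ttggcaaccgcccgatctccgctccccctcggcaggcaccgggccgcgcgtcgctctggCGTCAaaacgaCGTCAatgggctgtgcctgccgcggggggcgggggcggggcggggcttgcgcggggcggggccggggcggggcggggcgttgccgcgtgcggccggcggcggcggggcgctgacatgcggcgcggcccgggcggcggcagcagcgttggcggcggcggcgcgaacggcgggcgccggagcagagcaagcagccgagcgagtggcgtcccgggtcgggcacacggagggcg
The full element stood 1 time in the upstream Crem window and 2 times in the downstream one, and the Sik1 window held 2 copies of the shorter element. Searched on both strands, TGACGTCA was in 1.83% of all 33469 windows of the table and TGACG, which overlaps it, in 21.2%. Of the 10 risen genes of the cAMP list, 9 had a window, and all 9 windowed genes held TGACG in at least 1 of their windows. The list was made of known cAMP and CREB targets, so this count is no separate support for a CREB effect. Genes of the list that did not rise were not counted separately, and genes with several windows had more places for a match. Over genes with a window, TGACG was found for 30.7% of those higher with forskolin, 25.7% of those lower and 26.9% of all measured. TGACGTCA was found for 3.59% of genes higher, 1.86% of genes lower and 2.51% of all measured. A match describes the letters and was not tested for binding.

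Sik1 had log2 signals of 6.11, 6.11 and 6.22 with CHIR and 7.90, 7.94 and 8.20 with CHIR plus forskolin. The forskolin arrays were higher by a margin far wider than the spread in either group. All 3 CHIR arrays of Sik1 were below the near-background level, so their small spread is that of near-background signal and the difference is bounded, not fixed. Its rise was 1.87 ± 0.11 (adjusted p = 8.51e-08), with 12 of 16 probe sets called higher. With the brightest probe set in place of the median the difference was 0.06 (adjusted p = 0.817). The 3 Nr4a genes, orphan nuclear receptors induced within hours by cAMP in many cells, all rose. Nr4a3 went from 6.18, 6.59 and 6.79 to 8.66, 8.75 and 8.72, a rise of 2.19 ± 0.13 (adjusted p = 6.39e-08). Nr4a2 went from 8.94, 9.04 and 9.51 to 10.43, 10.51 and 10.57, a rise of 1.34 ± 0.12 (adjusted p = 3.68e-06). In both genes the groups did not overlap, and CHIR arrays scattered more than forskolin arrays. Nr4a1 rose by 0.79 ± 0.13 (adjusted p = 0.000811). Dusp1, a phosphatase of MAP kinases, rose by 0.98 (adjusted p = 5.71e-05), and Per2, a clock gene with a known cAMP response, by 0.70 (adjusted p = 0.00048). The exception with the largest fall was Cited1, a coactivator that binds CBP and p300: it stood at 10.87, 11.08 and 11.07 with CHIR and at 9.56, 9.24 and 9.32 with CHIR plus forskolin, a fall of 1.64 ± 0.13 (adjusted p = 1.03e-06). Every forskolin array of Cited1 lay below every CHIR array.

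**Figure D1:**
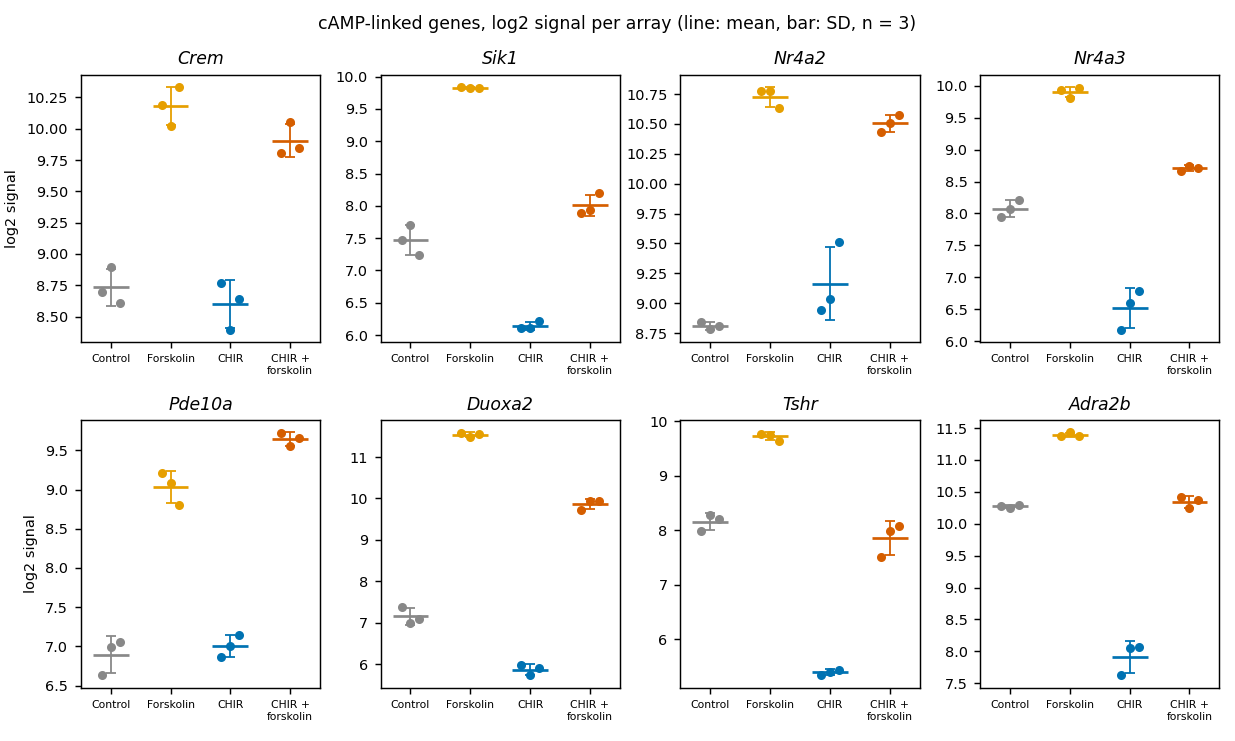
Log2 signal of 8 cAMP-linked genes on each of the 12 arrays (y axis) in the control, forskolin, CHIR and CHIR plus forskolin groups (x axis); points are arrays, lines are group means and bars are SDs of 3 arrays. In every panel the CHIR plus forskolin points lie above the CHIR points, from a mean difference of 1.30 for Crem to 3.99 for Duoxa2.

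Phosphodiesterases were unequally affected. Of 16 measured, 3 rose and 1 fell, which is 25% called beside 13.8% over all genes. Pde10a, which hydrolyses cAMP and cGMP, had 6.86, 7.00 and 7.15 with CHIR and 9.72, 9.56 and 9.66 with CHIR plus forskolin, a rise of 2.64 ± 0.13 (6.24-fold; adjusted p = 1.04e-08). The 3 forskolin arrays were closely grouped and far above the others, and 24 of 30 probe sets were called higher. Its brightest probe set was not among them, with a difference of -0.08 (adjusted p = 0.791). Pde3a rose by 1.17 (adjusted p = 3.28e-05), and Pde4d, a major cAMP-specific enzyme, by 0.63 (adjusted p = 4.45e-05). Pde4d lost its call with the brightest probe set, at a difference of 0.32 (adjusted p = 0.0678). Pde7a fell by 0.58 (adjusted p = 0.00435), but its brightest probe set gave -0.03 (adjusted p = 0.957). Pde4b, induced by cAMP in other cell types, was near background in both groups and differed by -0.08 (adjusted p = 0.827).

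Among 28 genes of the upstream part of the pathway, from the parathyroid hormone receptor through adenylate cyclase to PKA, 1 rose and 4 fell, which is 17.9% called beside 13.8% over all genes. The rise was Prkar1b, a regulatory subunit of PKA, which went from 5.75 ± 0.08 to 6.50 ± 0.24, a difference of 0.76 (adjusted p = 0.000449). Its CHIR mean was below the near-background level, and with the brightest probe set it lost its call, at 0.53 (adjusted p = 0.0678). Pth1r, the receptor for parathyroid hormone and its related peptide, had a high signal on all 6 arrays, with 11.60, 11.71 and 11.45 on the CHIR arrays and 11.41, 11.51 and 11.53 on the CHIR plus forskolin arrays. Those ranges overlapped, and the difference was -0.10 (95% interval -0.28 to 0.08; adjusted p = 0.524). The gene of the peptide, Pthlh, was measured by 1 probe set and differed by 0.04 (adjusted p = 0.874).

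Many hormone receptor and thyroid-type genes that are known to be linked to cAMP rose: of 21 measured, 9 rose and 1 fell, and the median difference was 0.23 log2 units. Over all genes 6.51% rose and 7.33% fell. Duoxa2, the factor that carries the hydrogen peroxide-producing oxidase Duox2 out of the endoplasmic reticulum, showed the largest rise among the genes named by size. It had 5.99, 5.74 and 5.90 on the CHIR arrays, below the near-background level, and 9.72, 9.94 and 9.95 on the CHIR plus forskolin arrays. The gap between the groups was many times the spread within them, and all 6 of its probe sets were called higher. The rise was 3.99 ± 0.11 log2 units (adjusted p = 6.58e-11). Duox2 itself rose by 1.05 (adjusted p = 0.001), but its brightest probe set gave -0.26 (adjusted p = 0.220). Tshr, the thyrotropin receptor, which couples to adenylate cyclase, went from 5.33, 5.39 and 5.44 to 7.51, 7.99 and 8.08. No CHIR array exceeded the near-background level and every forskolin array did, with a rise of 2.47 ± 0.13 (adjusted p = 2.26e-08). Adra2b, an adrenergic receptor that inhibits adenylate cyclase, went from 7.62, 8.06 and 8.06 to 10.43, 10.24 and 10.37, a rise of 2.43 ± 0.11 (adjusted p = 4.16e-09) on its 1 probe set. Trh, the gene of thyrotropin-releasing hormone, had 6.16, 6.87 and 6.56 with CHIR and 8.49, 7.31 and 7.42 with CHIR plus forskolin. The groups did not overlap, but the first forskolin array of Trh stood well above the other two. Its rise was 1.21 ± 0.25 (adjusted p = 0.00466). Slc5a5, the sodium iodide symporter, named here because it alone of this list fell, differed by -0.94 (adjusted p = 5.49e-06).

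Several of the largest rises lay outside these lists. Ribc2, a protein of ciliary microtubule doublets, went from 7.99, 7.65 and 8.29 to 12.13, 11.78 and 11.96, a rise of 3.98 ± 0.14 (15.8-fold; adjusted p = 5.86e-10). The 2 groups of Ribc2 were separated by more than 3 log2 units. Sema3c, a secreted semaphorin, went from 5.83, 5.44 and 5.78 to 8.70, 8.52 and 8.92, a rise of 3.03 ± 0.12 (adjusted p = 2.36e-09), from below to above the near-background level on every array. Jade1, a subunit of a histone acetyltransferase complex, rose by 2.61 (adjusted p = 1.72e-09), and Sertad4 by 2.78 (adjusted p = 7.31e-09). Stmn2, a tubulin-binding protein of growing neurites, had 8.89, 8.36 and 9.39 with CHIR and 11.46, 11.29 and 11.13 with CHIR plus forskolin. Its CHIR arrays were spread over about 1 log2 unit, and all lay below the forskolin arrays, which differed from them by 2.41 ± 0.18 (adjusted p = 8.37e-07). Spsb1, an adaptor of a ubiquitin ligase, rose by 2.42 (adjusted p = 1.1e-07), Niban1, a stress-induced protein, by 2.32 (adjusted p = 2.26e-08), and Akr1b8, an aldo-keto reductase, by 2.16 (adjusted p = 4.71e-10). Id4, which blocks DNA binding by basic helix-loop-helix factors, rose by 2.24 (adjusted p = 2.36e-09), and Gpm6b, a membrane proteolipid, by 2.03 (adjusted p = 9.9e-07).

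Epithelial genes fell. Of 38 epithelial and tight junction genes, 23 fell and 1 rose, and the median difference was -0.50 log2 units, against 7.33% of all genes lower. The one that rose, named for that reason, was Cldn12, at 0.32 (adjusted p = 0.0218). Cldn7, a claudin of tight junctions and the lateral membrane, had the largest fall of the genes named by size. Its log2 signals were 10.95, 10.90 and 10.74 on the CHIR arrays and 7.14, 7.29 and 7.03 on the CHIR plus forskolin arrays. The 2 groups were separated by more than 3 log2 units, and all 4 of its probe sets were called lower. It fell by 3.71 ± 0.10 log2 units, a 13.1-fold change (adjusted p = 6.58e-11). Ocln, the gene of occludin, a membrane protein of tight junctions, had 10.65, 10.57 and 10.68 with CHIR and 7.92, 8.23 and 8.46 with CHIR plus forskolin, a fall of 2.43 ± 0.13 (adjusted p = 3.64e-08). Marveld2, which seals junctions where 3 cells meet, fell by 1.82 (adjusted p = 9.97e-08), and St14, a membrane serine protease of epithelia, by 2.00 (adjusted p = 9.97e-08). Cdh1, E-cadherin, the adhesion receptor of epithelial cells, had 12.15, 12.17 and 12.05 with CHIR and 10.08, 10.38 and 10.34 with CHIR plus forskolin. All forskolin arrays were lower, and all 16 probe sets were called lower. The fall of Cdh1 was 1.86 ± 0.09 (adjusted p = 1.5e-08).

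The promoter windows of Cldn7 and Ocln are shown because they hold repeated copies of CACCTG, the letters that Snail and Zeb repressors are known to bind. Capitals mark CACCTG or its reverse complement CAGGTG, and in Cldn7 also 1 cAMP response element. This element was chosen for the search after the falls had been seen. The windows are chr10:55188420-55188719 (plus strand) for Cldn7 and chr2:33441149-33441448 (minus strand) for Ocln.
Cldn7: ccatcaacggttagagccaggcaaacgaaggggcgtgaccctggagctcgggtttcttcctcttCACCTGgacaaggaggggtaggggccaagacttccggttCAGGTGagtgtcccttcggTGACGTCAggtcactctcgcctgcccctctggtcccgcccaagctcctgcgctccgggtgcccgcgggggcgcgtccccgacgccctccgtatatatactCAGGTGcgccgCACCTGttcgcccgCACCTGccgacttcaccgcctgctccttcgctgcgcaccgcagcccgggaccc
Ocln: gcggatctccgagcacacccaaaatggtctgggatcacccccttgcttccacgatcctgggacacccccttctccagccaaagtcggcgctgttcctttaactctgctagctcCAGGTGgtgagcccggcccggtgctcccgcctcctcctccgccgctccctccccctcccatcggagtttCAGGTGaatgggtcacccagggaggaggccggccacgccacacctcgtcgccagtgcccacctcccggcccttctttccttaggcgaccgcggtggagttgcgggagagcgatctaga
Cldn7 held 5 copies and Ocln 2. Of the 23 epithelial genes that fell, 15 had a window and 10 of these held CACCTG on either strand. Cgn, Krt18, Marveld2, Pard3 and Tjp1 held no copy. Epithelial genes that did not fall were not counted separately, and binding was not tested. The same letters were in 18.8% of all windows, and were found for 27.1% of genes lower with forskolin, 15.6% of genes higher and 19.4% of all measured genes with a window.

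Snai1, a zinc finger repressor of epithelial genes that marks the change to parietal endoderm, rose. Its log2 signals were 9.93, 10.13 and 10.10 with CHIR and 11.41, 11.38 and 11.29 with CHIR plus forskolin, with every forskolin array above every CHIR array. The rise was 1.31 ± 0.08 (adjusted p = 9.97e-08), and all 3 probe sets were called higher. Vim, the intermediate filament protein vimentin, had 8.11, 8.86 and 9.37 with CHIR and 9.68, 9.81 and 9.92 with CHIR plus forskolin. The CHIR arrays were widely spread, and the highest of them came within about 0.3 log2 units of the forskolin arrays. The rise of Vim was 1.03 ± 0.22 (adjusted p = 0.00511), and 2 of its 9 probe sets were called. Of 14 mesenchymal genes 4 rose and none fell, also at an unadjusted p under 0.05, and the median difference was 0.09. That is 28.6% called, beside 13.8% over all genes.

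Visceral endoderm genes fell in part. Of 22 measured, 8 fell (beside 7.33% over all genes) and none rose, against 1 higher at an unadjusted p under 0.05. The median was -0.04, and 11 of the 22 were above the near-background level in each group. The mean level of the 22 genes was 7.85 to 7.88 on the CHIR arrays and 7.45 to 7.47 on the CHIR plus forskolin arrays. Hnf4a, a nuclear receptor that drives visceral endoderm and hepatocyte programmes, had 10.11, 10.21 and 10.14 with CHIR and 8.20, 8.32 and 8.69 with CHIR plus forskolin. The groups were apart by more than 1 log2 unit, and 11 of 12 probe sets were called lower. It fell by 1.75 ± 0.14 (adjusted p = 1.04e-06). Epcam, an epithelial adhesion molecule, fell by 1.27 (adjusted p = 1.17e-06), Cldn6 by 1.20 (adjusted p = 5.01e-07) and the secreted signal Ihh by 1.10 (adjusted p = 4.51e-05). Epcam, Cldn6 and Cdh1, the largest fall of this list, were also counted among the epithelial falls, so the 2 counts are not independent. The absorptive receptors of visceral endoderm also fell. Amn, the membrane anchor of cubilin, fell by 0.96 (adjusted p = 1.21e-05), Lrp2, megalin, by 0.70 (adjusted p = 0.00118) and Cubn, cubilin, by 0.45 (adjusted p = 0.0091). With the brightest probe set, Amn differed by -0.13 (adjusted p = 0.489) and Lrp2 by -0.18 (adjusted p = 0.104). Classical secreted markers of visceral endoderm were low in both groups: Afp differed by 0.00 (adjusted p = 0.992) and Ttr by 0.11 (adjusted p = 0.487).

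Parietal endoderm genes rose in part. Of 17 measured, 5 rose (beside 6.51% over all genes) and none fell, against 1 lower at an unadjusted p under 0.05. The median difference was 0.12. The mean level of the 17 genes was 10.65 to 10.82 on the CHIR arrays and 10.98 to 11.06 on the CHIR plus forskolin arrays. Both were below the 11.64 to 11.70 of the control arrays, so the rise was a partial return toward control. With forskolin alone 1 of the 17 rose and 1 fell, and 3 had a called, more positive effect under CHIR. Besides Snai1 and Vim, the risen genes were Stra6, a vitamin A transporter, at 0.81 (adjusted p = 5.31e-06), Nid1, the basement membrane linker nidogen, at 0.44 (adjusted p = 0.00173), and the collagen IV chain Col4a1 at 0.37 (adjusted p = 0.0111). Snai1 was also counted among the mesenchymal rises, so the counts of the 2 lists share it. Col4a1 lost its call with the brightest probe set, at 0.09 (adjusted p = 0.595). The 2 secreted or surface markers most used for parietal endoderm did not pass. Plat, tissue plasminogen activator, had 8.54, 8.83 and 9.00 with CHIR and 9.00, 9.03 and 9.27 with CHIR plus forskolin. These ranges met at 9.00, and the difference of 0.31 (95% interval 0.07 to 0.55) had an adjusted p of 0.0859. Without the third CHIR array it was 0.42 (adjusted p = 0.0245). Thbd, thrombomodulin, had 7.94, 8.37 and 8.33 and 8.51, 8.40 and 8.69, a difference of 0.32 (adjusted p = 0.0898). With the mean of the probe sets in place of the median, Plat had an adjusted p of 0.0169 and Thbd of 0.0463. Sparc and Lama1, matrix genes among the brightest on the array, differed by 0.06 (adjusted p = 0.715) and -0.04 (adjusted p = 0.826).

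Among transcription factors of the extraembryonic endoderm, Gata6 rose by 0.38 (adjusted p = 0.00158), with all 6 probe sets called, and Sox7, which is typical of parietal endoderm, rose by 0.66 (adjusted p = 2.27e-05). Gata4 differed by 0.12 (adjusted p = 0.313), Sox17 by 0.15 (adjusted p = 0.188) and Foxa2 by 0.01 (adjusted p = 0.985). Foxq1, a forkhead factor, fell by 2.45 (adjusted p = 7.31e-09), from 8.34, 8.07 and 8.06 to 5.82, 5.77 and 5.52. Its forskolin arrays were all below the near-background level and its CHIR arrays all above it.

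**Figure D2:**
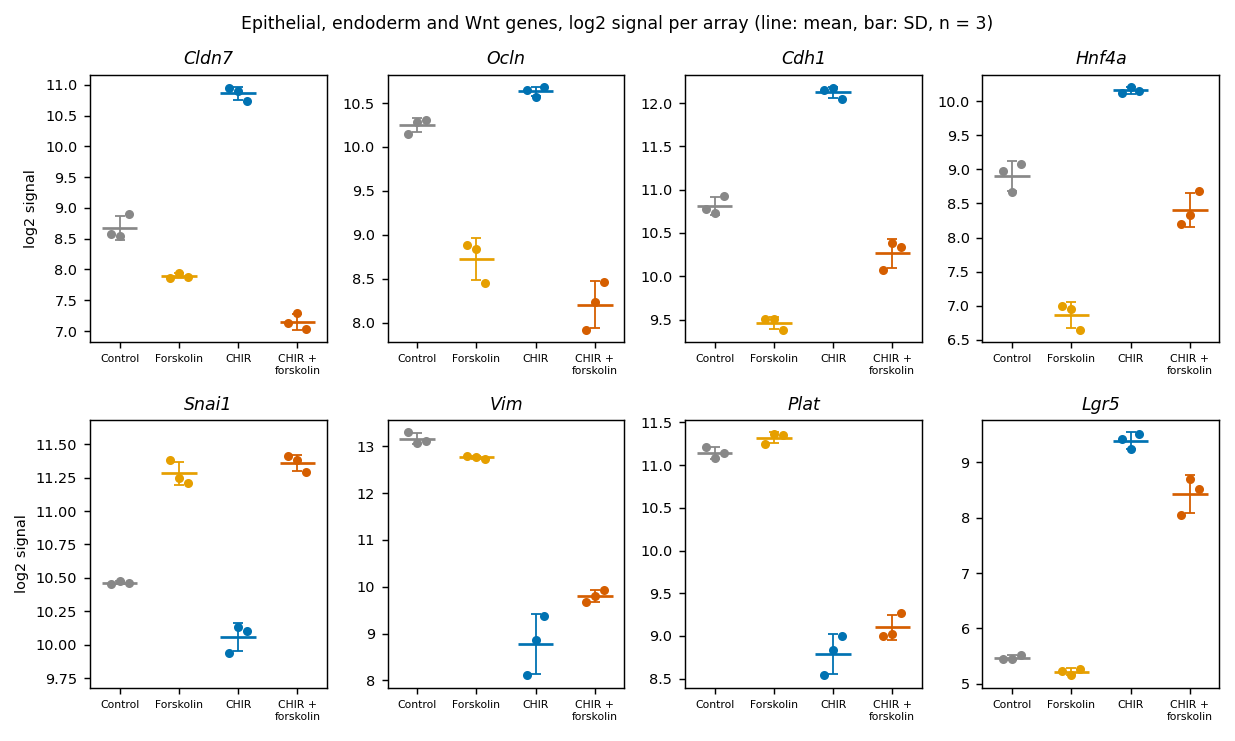
Log2 signal of 8 epithelial, endoderm and Wnt genes on each of the 12 arrays (y axis) by group (x axis); points are arrays, lines are group means and bars are SDs of 3 arrays. CHIR plus forskolin lies below CHIR for Cldn7, Ocln, Cdh1, Hnf4a and Lgr5 and above it for Snai1 and Vim, while the 2 groups come close for Plat.

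Targets of Wnt and β-catenin did not move as a group. Of 22 measured, 3 rose and 4 fell, beside 6.51% higher and 7.33% lower over all genes, and the median difference was -0.02. Axin2, a feedback inhibitor widely used as a readout of the pathway, had 8.70, 8.54 and 8.67 with CHIR and 8.26, 8.92 and 8.79 with CHIR plus forskolin. The forskolin arrays lay on both sides of the CHIR arrays, and the difference was 0.02 (95% interval -0.29 to 0.33; adjusted p = 0.96). Lgr5, the R-spondin receptor, went from 9.43, 9.23 and 9.52 to 8.05, 8.70 and 8.52, a fall of 0.97 ± 0.13 (adjusted p = 0.000194), and its groups did not overlap. Tcf7, a DNA-binding partner of β-catenin, fell by 0.85 (adjusted p = 0.00168), with all 11 probe sets called lower. Sox9 fell by 0.71 (adjusted p = 0.000191). Rises were found for Ephb3, an ephrin receptor, at 1.01 (adjusted p = 8.72e-07), for Bmp4 at 0.94 (adjusted p = 3.01e-05) and for Dkk1, a secreted inhibitor of the Wnt coreceptors, at 0.58 (adjusted p = 0.00537). Lef1 was near background in both groups. Of 26 receptors and secreted regulators of Wnt, 2 rose and 5 fell. The coreceptor Lrp5 fell by 1.23 (adjusted p = 0.000185), and the receptors Fzd5 and Fzd6 fell by 0.99 (adjusted p = 1.6e-05) and 0.93 (adjusted p = 1e-05; 0.0527 for Fzd6 with the brightest probe set). Rspo3, a secreted enhancer of Wnt signalling, rose by 0.95 (adjusted p = 1.26e-05), from a CHIR mean of 6.04, below the near-background level.

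Of 22 genes of the interferon response and antigen processing, 10 fell and 1 rose, beside 7.33% lower and 6.51% higher over all genes, with a median difference of -0.36. Rsad2, the antiviral enzyme viperin, had 8.69, 9.02 and 9.15 with CHIR and 7.02, 6.53 and 7.00 with CHIR plus forskolin. All forskolin arrays were lower by over 1 log2 unit, and all 6 probe sets were called. It fell by 2.11 ± 0.14 (adjusted p = 3.07e-07). Gbp2, an interferon-induced GTPase, fell by 1.46 (adjusted p = 9.97e-08), Mx2 by 1.26 (adjusted p = 1.27e-05), Isg15, a ubiquitin-like protein, by 1.01 (adjusted p = 6.21e-05), and Psmb9, an immunoproteasome subunit, by 0.97 (adjusted p = 3.01e-05). With the brightest probe set Mx2 differed by -0.10 (adjusted p = 0.846). Ddx60, a helicase of the antiviral response that is not on that list, had 9.36, 9.15 and 9.42 with CHIR and 6.94, 7.23 and 7.67 with CHIR plus forskolin. Its groups were far apart, 49 of 55 probe sets were called lower, and it fell by 2.03 ± 0.16 (adjusted p = 1.05e-06). B2m, the light chain of MHC class I, named because it alone of the list rose, differed by 0.81 (adjusted p = 0.00075).

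The windows of Rsad2 and Ddx60 are shown because each holds GAAA 2 times with any 2 bases between the copies, the core of the element that interferon-activated factors are known to bind. Capitals mark it or its reverse complement, TTTC spaced in the same way. It too was chosen for the search after the falls had been seen. The windows are chr6:48788071-48788370 (minus strand) for Rsad2 and chr16:33208790-33209089 (minus strand) for Ddx60.
Rsad2: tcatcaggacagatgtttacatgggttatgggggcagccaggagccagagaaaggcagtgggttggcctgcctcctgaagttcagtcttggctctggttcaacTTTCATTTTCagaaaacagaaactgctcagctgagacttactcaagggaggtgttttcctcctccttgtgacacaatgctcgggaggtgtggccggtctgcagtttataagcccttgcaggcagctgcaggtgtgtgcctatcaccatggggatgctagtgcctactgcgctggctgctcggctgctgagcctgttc
Ddx60: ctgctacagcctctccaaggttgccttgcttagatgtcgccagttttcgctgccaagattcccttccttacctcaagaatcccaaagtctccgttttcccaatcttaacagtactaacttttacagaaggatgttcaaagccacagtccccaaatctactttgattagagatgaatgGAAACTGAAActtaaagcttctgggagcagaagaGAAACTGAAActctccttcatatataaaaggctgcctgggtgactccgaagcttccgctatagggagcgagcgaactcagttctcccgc
Rsad2 held 1 copy and Ddx60 2. Of the 10 interferon genes that fell, 8 had a window and 5 of those held the element, which was in 3.92% of all windows. It was found for 4.02% of genes lower with forskolin, 2.91% of genes higher and 3.60% of all measured genes with a window. The list was made of genes of the interferon response, so the count of 5 is no separate support for an interferon effect. Interferon genes that did not fall were not counted separately, and binding was not tested.

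The remaining large falls were of varied function. Lrba, a vesicle trafficking protein, went from 8.42, 8.07 and 8.18 to 5.68, 5.79 and 5.56, a fall of 2.54 ± 0.11 (adjusted p = 4.16e-09), and 39 of its 55 probe sets were called lower. Lrig1, a membrane protein that restrains ErbB receptors, went from 10.25, 10.20 and 10.07 to 7.65, 7.65 and 7.71, a fall of 2.51 ± 0.09 (adjusted p = 4.71e-10). Both genes were separated on every array, as the choice by size required, and Lrba ended below the near-background level. Cdhr2, a protocadherin of brush border microvilli, fell by 2.42 (adjusted p = 2.66e-08), Lgals9, a galectin, by 2.32 (adjusted p = 2.94e-08), and Wipf3, of the family that binds the actin regulator WASP, by 2.16 (adjusted p = 1.74e-07). Acss3, a mitochondrial acyl-CoA synthetase, fell by 2.09 (adjusted p = 4.16e-09), Rcan2, a regulator of calcineurin, by 2.06 (adjusted p = 3.66e-07), Capn6, a calpain without protease activity, by 2.03 (adjusted p = 2.3e-09), and Lratd2 by 1.95 (adjusted p = 4.6e-08).

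Growth control genes changed in both directions. The cyclin-dependent kinase inhibitor Cdkn1c had 7.68, 7.93 and 7.90 with CHIR and 9.28, 9.03 and 9.10 with CHIR plus forskolin, a rise of 1.30 ± 0.09 (adjusted p = 3.55e-07), with no overlap. Another inhibitor, Cdkn2c, rose by 1.04 (adjusted p = 2.15e-06), but not past the threshold with the brightest probe set, at 0.56 (adjusted p = 0.0572). Ccnd1, cyclin D1, differed by -0.35 (adjusted p = 0.0947) and Myc by 0.23 (adjusted p = 0.275). Of 31 genes of mitosis 1 rose and 1 fell, and of 31 genes of DNA replication 2 rose and 3 fell, beside 13.8% called over all genes. Among 36 receptor tyrosine kinase and ERK feedback genes 8 rose and 6 fell. Insrr, an orphan relative of the insulin receptor, went from 7.13, 6.84 and 7.94 to 9.01, 8.91 and 8.98, a rise of 1.66 ± 0.20 (adjusted p = 5.23e-05). Its CHIR arrays were spread over more than 1 log2 unit, and all lay below the forskolin arrays. Spry1, a feedback inhibitor of ERK signalling, fell by 0.87 (adjusted p = 0.00187), and Dusp4, a MAP kinase phosphatase, rose by 0.68 (adjusted p = 0.00314). The CHIR mean of Dusp4, 6.05, was below the near-background level.

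Adhesion, matrix and guidance genes had calls in both directions, beside 6.51% higher and 7.33% lower over all genes. Of 15 integrins 5 rose and 1 fell: Itga6, a laminin-binding chain, rose by 0.68 (adjusted p = 2.64e-05), and its partner Itgb4, which anchors hemidesmosomes, fell by 0.80 (adjusted p = 5.02e-05). Itgb4 differed by -0.02 (adjusted p = 0.951) with the brightest probe set. Of 31 matrix genes 6 rose and 4 fell. Fn1, fibronectin, rose by 0.67 (adjusted p = 0.000101), Col6a2 by 0.64 (adjusted p = 0.00061) and Fbln1 by 0.54 (adjusted p = 0.000185), while the epithelial laminin chains Lama5 and Lamb3 fell by 0.84 (adjusted p = 9.77e-05) and 0.57 (adjusted p = 0.00188; 0.0556 for Lamb3 with the brightest probe set). Among 24 matrix proteases and inhibitors 5 rose and 3 fell. Adamts9 rose by 0.87 (adjusted p = 9.49e-06) and Plau, urokinase, by 0.62 (adjusted p = 0.00055), and Mmp15, a membrane-bound metalloproteinase, fell by 0.91 (adjusted p = 3.66e-06). The 53 probe sets of Adamts9 were split, with differences from -2.15 to 2.04. Its groups did not overlap in 38 probe sets that were higher and in 11 that were lower. Of 32 axon guidance genes 6 rose and 5 fell. Plxnc1, a semaphorin receptor, rose by 1.69 (adjusted p = 8.8e-08) and Sema6d by 1.34 (adjusted p = 9.97e-08), and Nrp1, a coreceptor for class 3 semaphorins and vascular growth factors, fell by 1.30 (adjusted p = 2.69e-06).

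Of 16 circadian clock genes 6 fell and 2 rose, beside 7.33% lower and 6.51% higher over all genes. Dbp, a clock output factor, had 9.87, 10.01 and 10.06 with CHIR and 8.68, 8.35 and 9.00 with CHIR plus forskolin, a fall of 1.30 ± 0.14 (adjusted p = 2.32e-05), and its relative Tef fell by 0.78 (adjusted p = 8.79e-05). Nr1d1, the clock repressor Rev-erbα, fell by 0.74 (adjusted p = 0.00147). Of 24 endoplasmic reticulum chaperones and unfolded protein response genes 6 rose and none fell, also at an unadjusted p under 0.05, with a median difference of 0.15. Ddit3, the stress factor CHOP, went from 8.94, 8.86 and 9.39 to 10.38, 10.33 and 10.04, a rise of 1.19 ± 0.13 (adjusted p = 1.92e-05), with every forskolin array above every CHIR array. Herpud1, of the degradation machinery of that compartment, rose by 0.67 (adjusted p = 0.000185) and the kinase-like regulator Trib3 by 0.66 (adjusted p = 0.00147), a call that was lost with the brightest probe set (adjusted p = 0.0654).

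**Figure D3:**
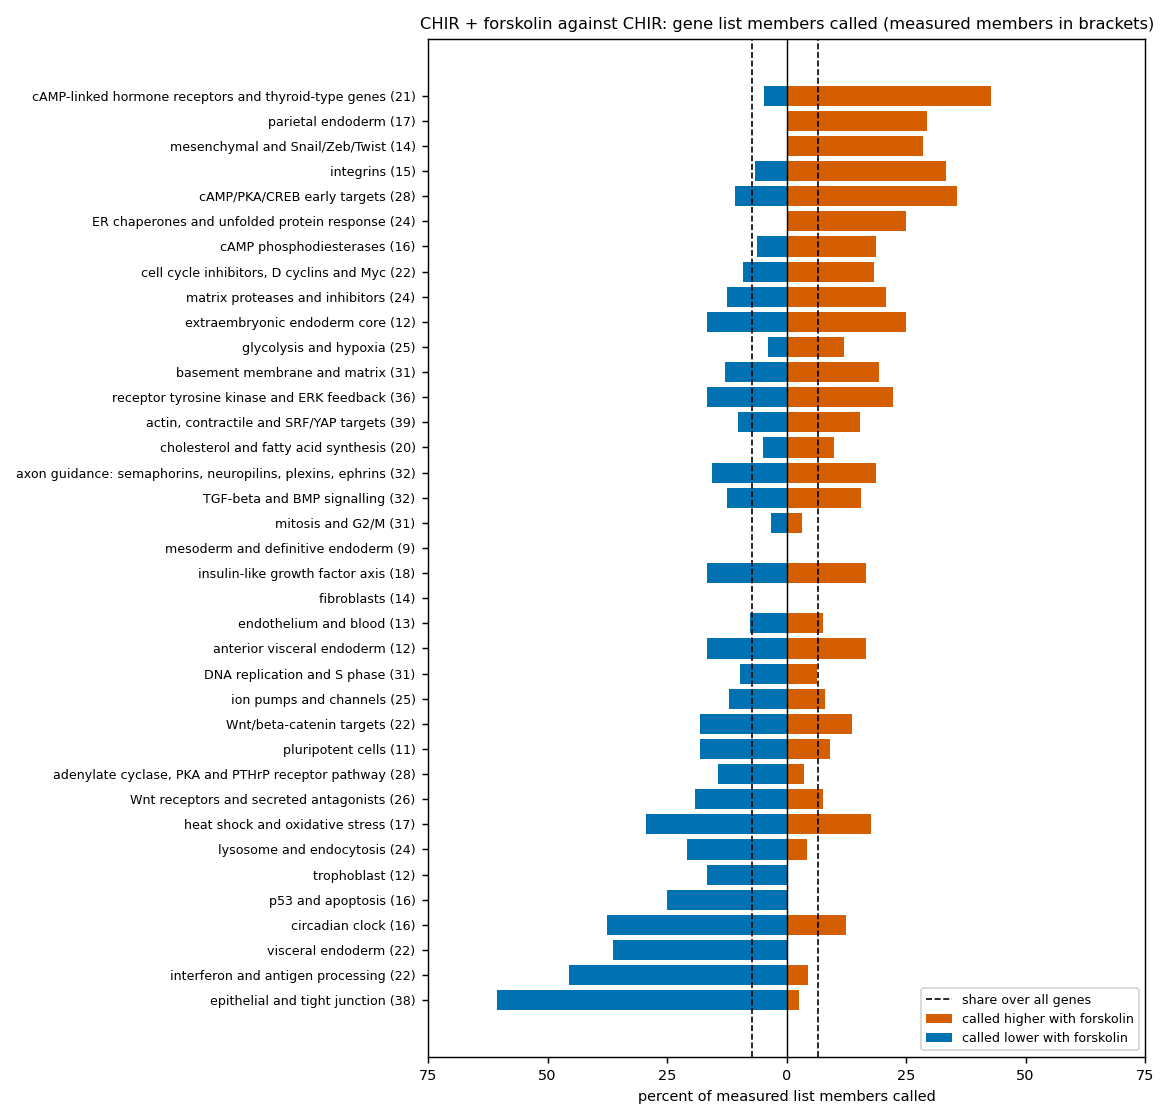
Percent of the measured members of each gene list (y axis, number of members in brackets) called higher, to the right, or lower, to the left, with CHIR plus forskolin against CHIR; dashed lines mark the shares over all 16633 genes, 6.51% higher and 7.33% lower. Epithelial genes have the highest share lower, 23 of 38, and cAMP-linked hormone receptor and thyroid-type genes the highest share higher, 9 of 21.

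The forskolin effect under CHIR was then set beside the effect of forskolin without CHIR, measured on the other 6 arrays, so the 2 effects share no array. With forskolin alone 1009 genes rose (6.07%) and 1483 fell (8.92%). Of the genes higher under CHIR 42.3% were also higher without it, and of those lower 40.1% were also lower, which is 458 and 489 genes. Seen from the other side, these were 45.4% of the genes higher and 33.0% of the genes lower with forskolin alone. A test of the difference between the effects in the same limma fit called 1050 genes (6.31%), of which 540 had the more positive effect under CHIR (3.25%) and 510 the more negative (3.07%). The count was 1870 with the mean of the probe sets and 630 with the brightest probe set. Among the 2301 genes changed under CHIR, 589 had an effect that differed from that without CHIR and 1712 had no called difference.

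For Duoxa2, Crem and Pde10a no difference between the effects was called. Duoxa2 rose by 4.38 with forskolin alone (adjusted p = 2.34e-11), and the difference between the effects was -0.39 (adjusted p = 0.181). Crem rose by 1.45 (adjusted p = 1.25e-06), with a difference of -0.15 (adjusted p = 0.741), and Pde10a rose by 2.14 (adjusted p = 8.08e-08), with a difference of 0.51 (adjusted p = 0.139). A difference that misses the threshold does not show that the effects are equal: with the mean of the probe sets the differences were -0.80 for Duoxa2 (adjusted p = 0.000105) and 0.32 for Pde10a (adjusted p = 0.0315). Other rises were larger under CHIR. Ribc2 rose by 2.16 without CHIR, 1.82 less than with it (adjusted p = 6.14e-05); its levels were 9.89 ± 0.11 in control and 12.05 ± 0.099 with forskolin, so the CHIR plus forskolin arrays reached the level of the forskolin arrays from a lower start. Spsb1 and Tmem63c, a membrane channel protein, had no called effect without CHIR, at 0.45 (adjusted p = 0.0602) and 0.14 (adjusted p = 0.257), and differences between effects of 1.97 (adjusted p = 5.68e-05) and 1.85 (adjusted p = 2.98e-07). Tmem63c had 7.21, 7.19 and 7.31 with CHIR and 9.25, 9.16 and 9.27 with CHIR plus forskolin, all below its 11.49 ± 0.043 in control.

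**Figure D4:**
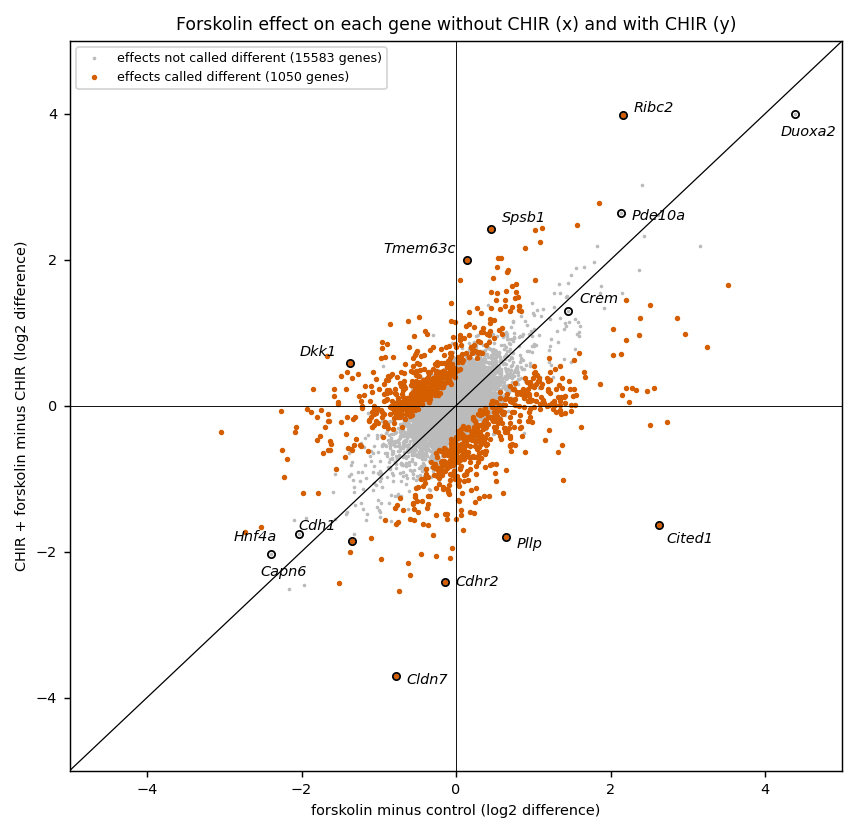
Log2 difference of each of 16633 genes for forskolin minus control (x axis) and CHIR plus forskolin minus CHIR (y axis); each point is a gene, the diagonal marks equal effects, and orange points are the 1050 genes whose effects were called different. Duoxa2, Crem and Pde10a lie near the diagonal, Spsb1, Tmem63c and Cdhr2 near the vertical axis, and Cited1 and Dkk1 in quadrants of opposite sign.

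Many of the epithelial effects were more negative under CHIR. Of the 38 epithelial genes 18 fell and 1 rose with forskolin alone, beside 8.92% lower and 6.07% higher over all genes. Of the same 38, 14 had a called, more negative effect under CHIR and 2 a more positive one. Over all genes these 2 shares were 3.07% more negative and 3.25% more positive. Cldn7 fell by 0.78 without CHIR (adjusted p = 0.000128), and the effects differed by -2.93 ± 0.15 (adjusted p = 9.93e-08). In control cells Cldn7 had 8.67 ± 0.19, so it was higher with CHIR alone and lower than in control with CHIR plus forskolin. Ocln fell by 1.52 without CHIR (adjusted p = 2.63e-06), with a difference of -0.91 (adjusted p = 0.0093). Cdhr2, Acss3, Rcan2 and Lratd2 had no called effect of forskolin without CHIR, at -0.15, -0.08, -0.26 and -0.05 (adjusted p = 0.542, 0.645, 0.287 and 0.833). Their control means were 7.37, 5.36, 8.32 and 5.86 and their CHIR means 9.12, 7.61, 10.49 and 7.76. With CHIR plus forskolin the means were 6.71, 5.52, 8.43 and 5.81, nearer to control than to CHIR in each. Without CHIR, Acss3 and Lratd2 were below the near-background level in both groups, so a fall there could not have been measured, and their difference between effects is bound to that floor. Of the 22 interferon genes, 2 fell and 1 rose without CHIR, beside 8.92% lower and 6.07% higher over all genes. Those 2 counts do not set the list apart. The effect was called more negative under CHIR for 7 of the 22, beside 3.07% over all genes.

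For a number of actin and cell division genes the difference ran the other way. Of 39 actin, contractile and SRF or YAP target genes, forskolin alone lowered 22 and raised 4, while under CHIR 4 fell and 6 rose. Forskolin alone lowered 8.92% and raised 6.07% of all genes. The difference between the effects was called for 17 of the 39, 16 toward the positive side under CHIR and 1 toward the negative. Over all genes these shares were 3.25% and 3.07%. Ccn2, a matricellular target of YAP, had 8.65, 9.04 and 8.91 with CHIR and 9.25, 9.33 and 9.39 with CHIR plus forskolin, a rise of 0.46 (adjusted p = 0.00444). Without CHIR it went from 10.50, 10.43 and 10.40 in control to 9.08, 9.01 and 9.01 with forskolin, a fall of 1.41 (adjusted p = 2.34e-07). The control arrays were the only high ones, and the 2 effects differed by 1.87 ± 0.13 (adjusted p = 2.85e-06). Nexn, an actin-binding protein, fell by 1.73 under CHIR (adjusted p = 1.37e-07) and also fell by 2.73 without it (adjusted p = 1.43e-09). Of 31 mitosis genes, 20 fell with forskolin alone, beside 8.92% over all genes, and 10 had a called, more positive effect under CHIR. Ccnd1 fell by 2.09 without CHIR (adjusted p = 1.17e-07), with a difference of 1.73 (adjusted p = 5.38e-05), and Myc by 1.58 (adjusted p = 8.87e-07), with a difference of 1.82 (adjusted p = 2.42e-05). The Myc signal was below the near-background level in every group but control. With the brightest probe set the difference for Myc was -0.05 (adjusted p = 0.954).

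In 93 of the 16633 genes both effects were called in opposite directions, beside 947 genes called in both in the same direction. Of the 93, 53 were higher with forskolin under CHIR and lower without CHIR, and 40 the reverse. Cited1 had the largest difference between the effects among the genes named by size. It stood at 7.73, 7.20 and 7.43 in control, 10.09, 10.19 and 9.97 with forskolin, 10.87, 11.08 and 11.07 with CHIR and 9.56, 9.24 and 9.32 with CHIR plus forskolin. Each compound alone gave a higher level than control, and both together a lower level than either. The effects differed by -4.27 ± 0.18 (adjusted p = 3.63e-08). Pllp, the myelin membrane protein plasmolipin, rose by 0.64 without CHIR (adjusted p = 0.000103) and fell by 1.80 under it (adjusted p = 7.05e-09), and Plekhb1 rose by 1.39 (adjusted p = 1.79e-05) and fell by 1.02 (adjusted p = 0.000314). The call of Plekhb1 under CHIR was lost with its brightest probe set, at -0.19 (adjusted p = 0.426). Fgfr4, a fibroblast growth factor receptor, rose by 1.37 without CHIR (adjusted p = 1.65e-05) and fell by 0.54 under it (adjusted p = 0.0236). That fall lost its call without the first or second CHIR array or the second CHIR plus forskolin array (adjusted p = 0.0831, 0.0851 and 0.108).

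Of the genes with the opposite pattern, the orphan nuclear receptor Nr4a1 had 9.14, 8.64 and 9.02 in control and 7.86, 8.12 and 7.92 with forskolin, a fall of 0.96 (adjusted p = 0.000142), and 7.44, 7.64 and 7.60 with CHIR and 8.17, 8.35 and 8.52 with CHIR plus forskolin, the rise given above. The control arrays were the highest and the CHIR arrays the lowest, and the effects differed by 1.75 (adjusted p = 4.68e-05). Under CHIR, the Nr4a1 rise had an adjusted p of 0.0541 with the brightest probe set. Dkk1 fell by 1.38 without CHIR (adjusted p = 3.04e-06), against its rise under CHIR, with a difference of 1.95 (adjusted p = 1.23e-05). Pkdcc, a secreted tyrosine kinase, fell by 0.85 without CHIR (adjusted p = 0.000364) and rose by 1.11 under it (adjusted p = 3.88e-05). Dusp4 fell by 1.67 without CHIR (adjusted p = 1.21e-06), with a difference of 2.35 (adjusted p = 5.3e-06). Its CHIR arrays were all below the near-background level, so a fall under CHIR could not have been measured. The difference between the effects of Dusp4 is bound to that floor. Plk3, a stress-responsive polo-like kinase, fell by 0.96 without CHIR (adjusted p = 0.000509) and rose by 0.87 under it (adjusted p = 0.00116).

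**Figure D5:**
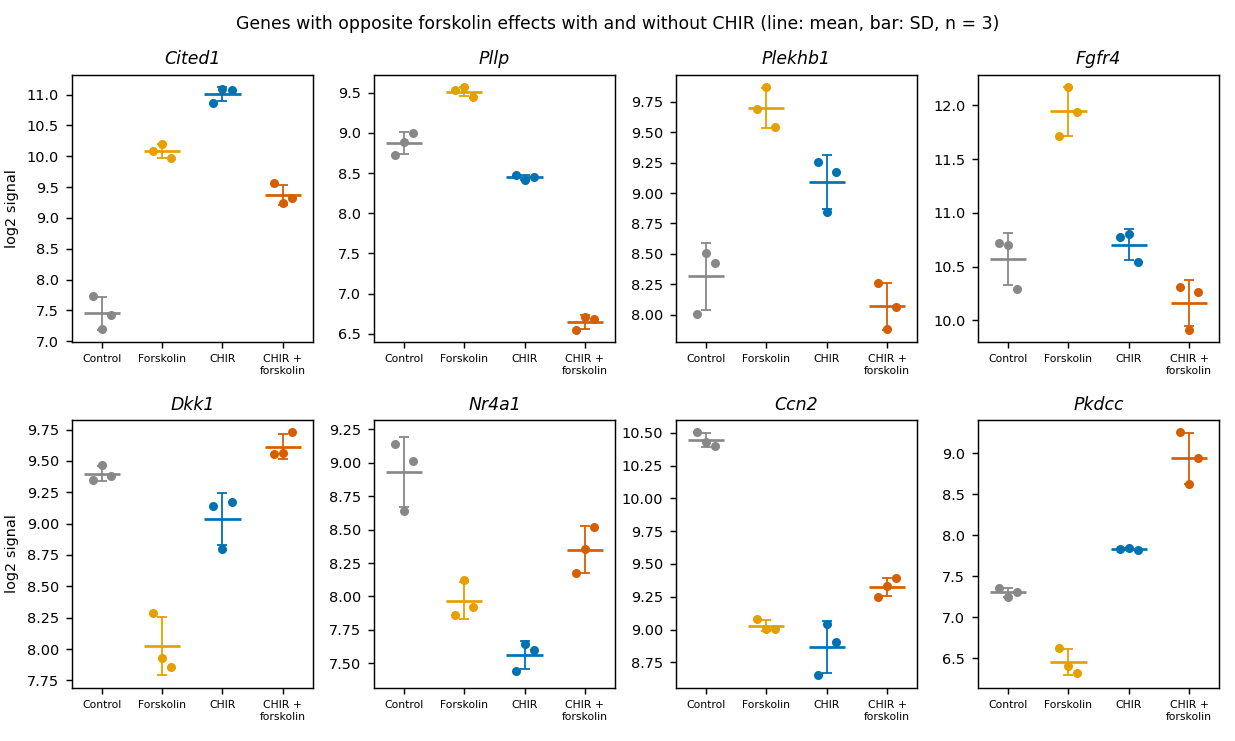
Log2 signal of 8 genes with opposite called effects of forskolin on each of the 12 arrays (y axis) by group (x axis); points are arrays, lines are group means and bars are SDs of 3 arrays. In the upper panels (Cited1, Pllp, Plekhb1, Fgfr4) forskolin lies above control and CHIR plus forskolin below CHIR, and in the lower panels (Dkk1, Nr4a1, Ccn2, Pkdcc) the order is reversed.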

How the data were processed

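Total RNA of 12 rat XEN cell samples was labelled with biotin and hybridised to Affymetrix arrays, per the labels. The authors deposited log2 signals of 211195 probe sets, made with RMA and Partek per the submitters' processing notes; the log2 base was read from the range of the values. For the array's probes a genome build is not given in the sources used here. Kept were the 172924 probe sets with 1 gene symbol in the platform annotation, while 1661 with several symbols and 36610 without one were left out of gene values. Symbols were updated through RefSeq names of GRCr8 (12878 current, 3669 updated, 86 kept), and each gene's value is the median over its probe sets (median of 8 probe sets a gene, 1788 genes with 1).

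A model of 4 group means was fitted with limma 3.58.1 in R 4.3.3 over all 12 arrays, with empirical Bayes moderation, two-sided tests and Benjamini-Hochberg adjustment over 16633 genes at 0.05. The number of arrays, 3 a group, limits the precision. The procedure was checked on simulated data. Named genes are the 15 largest rises and falls with non-overlapping groups and a higher group mean at or above 7.48, the median of all genes; up to 5 called members of each of 37 lists by size; the 8 largest differences between effects in each direction; and a set list of endoderm, Wnt and cAMP genes. The comparison, lists and tests were chosen with earlier results of these data known. Alternatives changed the summary of probe sets, the symbols, scaling, dim-gene filter, moderation, arrays entered and a replicate block. Promoter windows are RefSeq's. Replicate numbers did not pair the samples: deviations of same-numbered CHIR and CHIR plus forskolin arrays correlated at 0.05, 0.03 and 0.05.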

Additional observations from a re-analysis of the deposited data

Results flagged for a closer look

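The genes considered here were named by size, by their difference between effects or from the set list. For 39 of them the test of the difference between the forskolin effect with CHIR and that without CHIR passed. Genes named only as called list members were left out, although some also passed. Among those was Dusp4, at 2.35 (adjusted p = 5.3e-06), above every positive value below, but with CHIR arrays below the near-background level. Values are log2 differences between the effects (limma, adjusted over all genes). Positive values, where the effect under CHIR was the higher, were found for the actin-binding LIM protein Fhl1 (2.08), Spsb1 (1.97), Pkdcc (1.97), Dkk1 (1.95), Ccn2 (1.87), Tmem63c (1.85), Plk3 (1.82), Ribc2 (1.82), Myc (1.82), Nr4a1 (1.75) and Ccnd1 (1.73). Smaller ones were found for Gpm6b (1.48), Vim (1.42), Stmn2 (1.39), Adra2b (1.31), Akr1b8 (1.27), Id4 (1.16), Sertad4 (0.93), Tshr (0.91) and Snai1 (0.49).

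Negative values were found for Cdh1 (-0.51), St14 (-0.64), Lgr5 (-0.72), Ocln (-0.91), Rsad2 (-1.14), Wipf3 (-1.54), Ddx60 (-1.57), Lgals9 (-1.73), Rcan2 (-1.79), Lrba (-1.81), Lratd2 (-1.90), Fgfr4 (-1.91), Kifc2 (-1.96), Acss3 (-2.01), Cdhr2 (-2.27), Plekhb1 (-2.41), Pllp (-2.44), Cldn7 (-2.93) and Cited1 (-4.27). The calls of Cdh1, Lgr5 and St14 were each lost when 1 of several arrays was left out, and those of Cdh1 and St14 also with a replicate block (adjusted p = 0.0534 for both). With the brightest probe set the call was lost for Cdh1 (-0.46, adjusted p = 0.0821), Plekhb1 (-0.21, adjusted p = 0.673), Rcan2 (-0.66, adjusted p = 0.114), Rsad2 (-1.07, adjusted p = 0.0800) and Snai1 (0.25, adjusted p = 0.248), and the difference of Myc changed sign, at -0.05 (adjusted p = 0.954). Acss3, Lratd2 and Lgr5 were below the near-background level in both groups without CHIR, where a fall could not have been measured.

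For Fhl1 forskolin under CHIR had no call. Its arrays read 9.41, 9.56 and 9.63 with CHIR and 9.71, 9.90 and 9.69 with CHIR plus forskolin, against 8.42, 8.52 and 8.47 in control and 6.62, 6.70 and 6.54 with forskolin alone. The difference under CHIR was 0.23 (adjusted p = 0.0997). With the brightest probe set, the difference between its effects was 0.33 (adjusted p = 0.458).

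Probe sets without a gene symbol, which no comparison above used, also carried signal: 1296 of 36610 were called (3.54%), 597 higher and 699 lower with forskolin under CHIR, when tested by probe set. Of the 172924 probe sets with 1 symbol, 11380 were called (6.58%).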

How the results depend on the processing

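Averaging the probe sets of each gene gave 1631 genes higher and 1870 with a called difference between effects, and taking the brightest probe set gave 630 of the latter. Of the 2301 called genes, 1214 stayed called in the same direction with the brightest probe set and 2115 with the mean. The brightest probe set reversed Duox2 to -0.26 (adjusted p = 0.220), Itga11 to -0.10 (adjusted p = 0.821), Pde10a to -0.075 (adjusted p = 0.791), Rb1 to 0.10 (adjusted p = 0.668) and the difference between effects of Myc to -0.053 (adjusted p = 0.954), and 40 other named genes lost their call; the cause was not tested. Leaving out 1 array gave 1653 to 2382 called genes, 769 to 1110 higher, 884 to 1272 lower, 249 to 285 past 1 log2 unit and 838 to 1007 with differing effects, and 25 of 194 named genes lost the call under CHIR at least 1 time. Centring arrays on their medians gave 1211 genes higher and 1097 lower. A replicate block gave 2175 called genes, 1016 higher and 1159 lower, 254 past 1 log2 unit and 978 with differing effects; numbers shared by samples are not a pairing here. With only the 6 arrays compared, 1911 genes were called and no difference between effects could be had. Filtering dim genes dropped some named genes, which then had no value. Signals near background limit low genes.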

Other observations

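Ion transport genes held some of the larger falls that the lists above do not cover. Of 25 pumps and channels 3 fell and 2 rose, which is 20% called beside 13.8% over all genes. Atp1b1, the beta subunit of the sodium pump, had 11.95, 11.91 and 11.91 with CHIR and 9.94, 10.60 and 10.52 with CHIR plus forskolin, a fall of 1.57 ± 0.15 (adjusted p = 8.42e-06, limma). All forskolin arrays were lower by over 1 log2 unit. Trpm6, an epithelial magnesium channel, fell by 1.49 (adjusted p = 2.6e-06), and Slc12a2, the sodium, potassium and chloride cotransporter, by 1.34 (adjusted p = 3.21e-07). In the insulin-like growth factor axis 3 of 18 genes rose and 3 fell. The ligand Igf1 fell by 1.01 (adjusted p = 7.99e-05), while Irs2, an adaptor of insulin signalling, rose by 1.06 (adjusted p = 4.99e-07) and the binding proteins Igfbp6 and Igfbp4 by 1.41 (adjusted p = 1.65e-05) and 0.97 (adjusted p = 1.25e-06).

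Of 16 p53 and apoptosis genes 4 fell and none rose, against 2 higher at an unadjusted p under 0.05. That is 25% called, beside 13.8% over all genes. Tp53inp1, a p53 target, fell by 0.84 (adjusted p = 3.18e-06) and Pmaip1, the death-promoting protein Noxa, by 0.81 (adjusted p = 0.000116). Of 12 trophoblast genes 2 fell, and the 16.7% called lay close to the 13.8% over all genes. Gata3, 1 of the 2, fell by 0.94 (adjusted p = 2.53e-05), from 7.85, 8.12 and 8.14 to 7.17, 7.09 and 7.04. Dnmt3b, a DNA methyltransferase of early embryonic cells, fell by 0.97 (adjusted p = 0.00177), and Pou5f1 differed by 0.11 (adjusted p = 0.775), with arrays of both groups interleaved at 6.37, 6.79 and 6.98 and 6.59, 6.83 and 7.06. Dnmt3b was below the near-background level on every CHIR plus forskolin array.

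Further lists had calls in both directions, beside 6.51% higher and 7.33% lower over all genes. Of 17 heat shock and oxidative stress genes 3 rose and 5 fell. Gadd45a, a stress-induced growth arrest protein, rose by 0.86 (adjusted p = 4.8e-06), and Gclm, a subunit of the enzyme that limits glutathione synthesis, fell by 0.78 (adjusted p = 0.000307). Of 24 lysosomal and endocytic genes 1 rose and 5 fell, among them the protease cathepsin D, Ctsd, which fell by 0.56 (adjusted p = 0.000603). The glycolysis and hypoxia, cholesterol and endothelium lists were called at 16%, 15% and 15.4%, close to the 13.8% over all genes, so their counts say nothing particular about them. Of 25 glycolysis and hypoxia genes 3 rose and 1 fell. Pdk1, which holds back pyruvate dehydrogenase, rose by 0.69 (adjusted p = 9.16e-05), and the glucose transporter Slc2a3 fell by 0.46 (adjusted p = 0.000263). Of 20 cholesterol and fatty acid synthesis genes 2 rose and 1 fell. Among 32 genes of TGF-beta and BMP signalling 5 rose and 4 fell, and of 12 anterior visceral endoderm genes 2 rose and 2 fell. Of 13 endothelium and blood genes 1 rose and 1 fell: Tek, an angiopoietin receptor, went from 5.80, 6.07 and 6.46 with CHIR to 7.15, 7.35 and 7.30 with CHIR plus forskolin, a rise of 1.16 (adjusted p = 3e-05), and was at 8.54 ± 0.077 in control.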
